A study of Danio rerio with 6 samples.

Results

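The response of wild-type (Wt) Müller glia (MG) to retinal injury was described from 4 RNAseq libraries, 2 of GFP+ MG from uninjured retinas and 2 of GFP+ MG from needle poke-injured retinas at 2 days post-injury (dpi), out of 6 libraries in the series. All 4 came from adult gfap:GFP transgenic zebrafish with no mutation named in their labels. The transgene reports gfap promoter activity, and glia at rest, glia that respond to injury and the progenitors they give rise to cannot be separated by sorting on it. Retinas were pooled, dissociated with papain and sorted by fluorescence-activated cell sorting (FACS), and polyA RNA was sequenced. The other 2 libraries, of mycb-/- MG at 2 dpi, entered the filter on low counts, the scaling and the estimate of the spread between replicates. They were not compared with Wt here. For both Wt 2 dpi libraries the treatment label reads none, against their titles, and the titles were followed.

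All 23510 genes of the count table belonged to the comparison, and 20329 passed a filter on low counts and were tested. Levels are given as counts per 1000000 counts (CPM) scaled by edgeR's TMM method, for replicates 1 and 2 of each group in that order. A change is the log2 fold change of Wt 2 dpi over uninjured Wt with its standard error (SE), and positive values are higher at 2 dpi. Genes were called at a Benjamini-Hochberg adjusted p of edgeR's quasi-likelihood test of at most 0.05 over all genes tested and an absolute log2 fold change above 0.5, and only called genes are said to have risen or fallen. With 2 libraries a group, the 4 values of a gene did not overlap between groups for 70.7% of the genes tested, so that this separation alone says little. The values given for a single gene below did not overlap between groups unless stated. The labels do not say whether replicates came from separate fish, so the p-values measure the spread between these samples, which may be technical.

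MG span the retina and serve it by recycling neurotransmitter, buffering ions and supporting photoreceptors. In zebrafish, unlike mammals, they respond to injury by reprogramming: they lose part of their differentiated program, take on genes of retinal progenitors, divide, and produce new neurons. Ascl1a and Lin28a are regulators known to be needed for this step, and cytokines acting through gp130 and Stat3 are known to induce them.

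The libraries held 55231678 and 55692226 counts in uninjured Wt and 64353562 and 55080603 counts at 2 dpi. The chi-square per gene between replicates was 99 in uninjured Wt and 46.0 at 2 dpi, well beyond sampling noise, and all were kept as separate samples. The 12 MG genes named by the study, markers such as gfap, glulb, apoeb, vim and cdh2 among them, took 0.413 and 0.307% of all counts in uninjured Wt and 1.36 and 1.29% at 2 dpi. MG markers were thus present in every library. Transcripts of photoreceptors were present as well, although the sort selected GFP+ cells. The 24 rod genes took 1.34 and 2.09% of all counts in uninjured Wt and 0.217 and 0.150% at 2 dpi, and the 16 cone genes took 4.68 and 5.66% of all counts in uninjured Wt and 2.68 and 2.77% at 2 dpi. Rod genes therefore moved with the groups in every comparison below. Outside the cone list, the red opsins opn1lw1 (1.05 and 1.12%) and opn1lw2 (0.789 and 1.19%) took further counts in uninjured Wt. With TMM factors computed without the 40 listed photoreceptor genes, 7442 genes were called, against 7439 with all genes. That setting concerns the scaling alone and cannot show how far RNA of other cells affected the calls. In RNA of sorted pools, fewer cells of a type and less RNA per cell cannot be told apart.

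At 2 dpi 3904 genes (19.2% of those tested) rose and 3535 (17.4%) fell, so that 36.6% were called in either direction, and the median log2 fold change over all genes tested was -0.00. Each count of list members called higher or lower below is to be read against these 19.2 and 17.4%. The increases were larger than the decreases. A log2 fold change above 2 was found for 1365 of the genes called higher, and one below -2 for 408 of the genes called lower. Beyond 4 in either direction these counts were 539 and 78. No count at all was found in both uninjured libraries for 147 of the genes called higher, and in both 2 dpi libraries for 56 of the genes called lower. Together the genes called higher took 14.1 and 14.1% of all counts in uninjured Wt and 40.5 and 38.3% at 2 dpi. The genes called lower took 39.4 and 39.0% of all counts in uninjured Wt and 17.8 and 18.6% at 2 dpi. Leaving out 1 library at a time, 4240 (57.0%) of the called genes kept their call in all 4 fits. The count of genes called lower was most affected by Wt 2 dpi replicate 1, without which it was 2350.

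**Figure D1:**
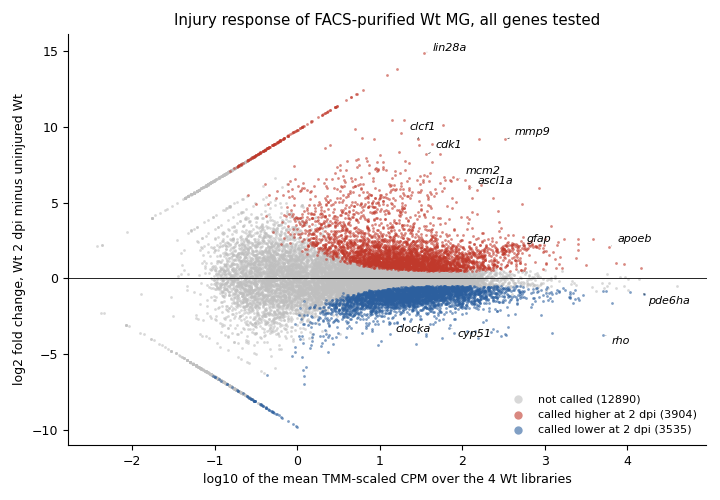
Log2 fold change of each of the 20329 genes tested (Wt 2 dpi minus uninjured Wt) against the log10 of its mean level over the 4 Wt libraries. Red points are the 3904 genes called higher, blue points the 3535 genes called lower and grey points the rest. Straight lines of points at the left are genes at 0 in 1 group, for which the fitted value depends on the prior count.

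The 10 named genes with the largest fitted increases were all at 0 counts in both uninjured libraries, so their changes are given as lower limits against 3 counts over that group. The first was lin28a, an RNA-binding protein that blocks maturation of let-7 miRNAs, with 4194 and 4289 counts at 2 dpi and a level at least 2621-fold higher. The next were si:dkey-97i18.5 (at least 1235-fold) and TRIP13, an ATPase of the spindle checkpoint (at least 939-fold, with 1537 and 1508 counts). Capitals here mark a name that comes from a gene name table and not from the study's tables. Lower-case names can come from either. PGR, the progesterone receptor, rose at least 470.0-fold, and mcm10, a replication initiation factor, at least 403-fold. Among the rest were genes of motile cilia, with IQUB at least 344-fold, odad1 at least 340.5-fold and ak8 at least 229.6-fold higher. The others were the galectin lgals1l1 (at least 299.6-fold) and the homeobox gene DLX3 (at least 229-fold). Of identifiers whose table name is shared by another identifier, ENSDARG00000023053 (NIBAN1) rose at least 393-fold and ENSDARG00000007097 (HES6) at least 165-fold. Replication, checkpoint, ciliary and developmental genes were thus all among the strongest increases.

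The 10 largest fitted decreases were of genes with low counts in uninjured Wt and none at 2 dpi. They were zgc:77938 (at least 81.2-fold lower), the axon guidance receptor DCC (at least 74.0-fold), pde11a (at least 63.1-fold), si:dkey-7f16.2, the nicotinic receptor subunit CHRNB4, the neuropeptide receptor NPFFR1, CILP2, spon2a, si:dkey-148a12.2 and si:ch211-241d24.5 (at least 39.2-fold). DCC was counted 111 and 94 times in uninjured Wt. Of identifiers with a shared name or none, ENSDARG00000004445 (GRM5) was at least 78.9-fold and ENSDARG00000117200 at least 54.4-fold lower. Of these 10, DCC and pde11a kept their call with each of the 4 libraries left out in turn. The call of zgc:77938 was lost without uninjured replicate 1 (adjusted p = 0.0527). The other 7 were lost without Wt 2 dpi replicate 1, with adjusted p-values from 0.0504 (spon2a) to 0.122 (si:ch211-241d24.5), and si:dkey-7f16.2, CHRNB4, NPFFR1 and si:ch211-241d24.5 were lost without any 1 of the 4. ENSDARG00000117200 was lost without uninjured replicate 1 (0.225) or either injured library (0.0949 and 0.0822).

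Glial genes did not move as a block. Of the 12 MG genes named by the study, 10 rose and 1 fell, with a median of 1.40. These names were printed in the study's tables of genes that changed in these same libraries, so the count is no independent evidence of a direction. This holds for each list of study names below. The intermediate filament gene gfap stood at 196 and 159 CPM in uninjured Wt and 837 and 705 CPM at 2 dpi (log2 fold change 2.12 ± 0.23, adjusted p = 0.00013). The apolipoprotein E gene apoeb, which carries lipid between glia and neurons, was at 2457 and 2082 CPM in uninjured Wt and 9997 and 9289 CPM at 2 dpi (log2 fold change 2.09 ± 0.21, adjusted p = 7.22e-05). Both genes were several fold higher in each injured library than in any uninjured one. The cadherin cdh2 rose from 373 and 292 to 946 and 988 CPM (1.54 ± 0.20), the filament gene vim from 91.4 and 89.8 to 195 and 171 CPM (1.02 ± 0.17), and the orphan receptor gpr37l1a from 3.37 and 2.10 to 14.3 and 15.2 CPM (2.43 ± 0.32). The tetraspanin cd9a fell from 57.4 and 71.7 to 34.1 and 37.2 CPM (-0.86 ± 0.18), in the opposite direction to the other called members.

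A wider list of 24 genes of glial homeostasis, written from textbook knowledge, was divided. Of these 10 (41.7%) were called higher, 2 (8.33%) lower and 12 not called, against 19.2 and 17.4% of all genes tested. Glutamine synthetase, which converts glutamate taken up from synapses, shows the division within 1 enzyme. Its gene glulb stood at 229 and 136 CPM in uninjured Wt and 829 and 757 CPM at 2 dpi (log2 fold change 2.12 ± 0.34, adjusted p = 0.00108). The other glutamine synthetase gene of the list, GLUL (ENSDARG00000099776), was at 7691 and 5624 CPM in uninjured Wt and 4878 and 4349 CPM at 2 dpi (log2 fold change -0.53 ± 0.26, adjusted p = 0.14), and was not called. The brain fatty acid binding protein gene FABP7 (ENSDARG00000007697), a marker of radial glia and progenitors, rose from 301 and 273 to 1779.8 and 1625 CPM (2.57 ± 0.20), and the calcium-binding protein gene S100B rose from 0.842 and 1.12 to 8.63 and 18 CPM (3.76 ± 0.48, and 3.13 without Wt 2 dpi replicate 2). The retinaldehyde-binding protein gene rlbp1a, which serves the visual cycle in MG, was at 1364 and 1099.5 CPM in uninjured Wt and 1137 and 1141 CPM at 2 dpi, where the groups overlapped (log2 fold change -0.11 ± 0.18, adjusted p = 0.675). The gap junction gene GJA1 at 251 and 193 CPM in uninjured Wt and 183 and 154 CPM at 2 dpi (log2 fold change -0.40 ± 0.19, adjusted p = 0.132) was not called either. Both genes of the proteoglycan neuroglycan C fell, cspg5b from 122 and 127 to 39.6 and 45 CPM (-1.55 ± 0.19) and cspg5a from 229 and 249 to 131 and 134 CPM (-0.85 ± 0.16). The filament genes gfap and vim, the lipid transport gene apoeb and 1 of the glutamine synthetase genes were thus higher. Both cspg5 genes were lower, and GJA1 and rlbp1a did not pass the test.

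Regulators of reprogramming and of retinal progenitors made up a list of 21 study names, of which 15 rose and 6 fell (median 1.32). Of the 34 tested genes of a textbook list of regeneration factors, 15 rose and 4 fell (median 0.78), shares of members to be read against the 19.2 and 17.4% of all genes. The proneural factor ascl1a stood at 4.03 and 3.72 CPM in uninjured Wt and 246 and 229 CPM at 2 dpi (log2 fold change 5.94 ± 0.21, adjusted p = 6.6e-07), while its paralog ascl1b was at 4.46 and 3.18 CPM in uninjured Wt and 0.985 and 1.1 CPM at 2 dpi (log2 fold change -1.87 ± 0.55, adjusted p = 0.024). Every 2 dpi library was thus far above uninjured Wt for ascl1a and below it for ascl1b, although the ascl1b call was lost without Wt 2 dpi replicate 1 (adjusted p = 0.0774), Wt 2 dpi replicate 2 (0.0535) or uninjured replicate 1 (0.155). The stem cell factors sox2 (99.1 and 72.2 to 262 and 202 CPM, 1.44 ± 0.25) and sox9a (23.7 and 14 to 52.6 and 41.8 CPM, 1.32 ± 0.26) and the homeobox gene six3b of retinal progenitors (1.61 ± 0.17) rose less steeply.

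Several regulators that were low in uninjured MG were many fold higher at 2 dpi. The bHLH factor olig2 stood at 1.89 and 1.90 CPM in uninjured Wt and 25.5 and 29.8 CPM at 2 dpi (log2 fold change 3.87 ± 0.25, adjusted p = 7.29e-06). The zinc finger gene zic2b was at 7.04 and 5.17 CPM in uninjured Wt and 93.4 and 97.3 CPM at 2 dpi (log2 fold change 3.96 ± 0.21, adjusted p = 2.39e-06). FOXN4, a forkhead factor of retinal progenitors, was at 1.77 and 1.49 CPM in uninjured Wt and 34.6 and 35.9 CPM at 2 dpi (log2 fold change 4.43 ± 0.25, adjusted p = 3.24e-06). In each case both replicates agreed closely within their group. The transcriptional coregulator cited1 rose from 0.236 and 0.607 to 16.2 and 17.6 CPM (5.33 ± 0.45, and 6.17 without uninjured replicate 2) and the Runx partner genes runx1 and cbfb by 3.0 ± 0.32 and 2.90 ± 0.31. The inhibitor of bHLH factors id1 rose from 157 and 139 to 327 and 345 CPM (1.18 ± 0.17), and the Hippo effector yap1 rose from 76.0 and 54.8 to 110.2 and 98.7 CPM (log2 fold change 0.68 ± 0.20, adjusted p = 0.0269), a call lost without Wt 2 dpi replicate 1 (adjusted p = 0.14), replicate 2 (0.0581) or uninjured replicate 2 (0.145). Lower at 2 dpi was fezf2, a zinc finger factor of neural development, from 16.9 and 15.2 to 6.67 and 4.79 CPM (-1.48 ± 0.28). So were the RNA-binding regulator msi2b (-1.06 ± 0.18), numbl (-1.09 ± 0.23) and neurod4, a bHLH factor of differentiating neurons, from 109 and 96.2 to 57.3 and 59.8 CPM (log2 fold change -0.81 ± 0.21, adjusted p = 0.0142), lost without uninjured replicate 1 (adjusted p = 0.0627) or either 2 dpi library (0.0812 and 0.0578). The decreases of this list were the less stable part, with 3 of the 6 left without uninjured replicate 1 or without Wt 2 dpi replicate 1. Of the 4 regeneration factors called lower, 1 was left without uninjured replicate 1 and 1 without Wt 2 dpi replicate 1. Without Wt 2 dpi replicate 2, 2 were left.

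Of the 6 Myc family genes, which encode transcription factors of growth and ribosome production, 1 was called. This was mych, at 53.0 and 30.3 CPM in uninjured Wt and 296 and 205 CPM at 2 dpi (log2 fold change 2.59 ± 0.28, adjusted p = 0.000119). Neither of the 2 identifiers that the gene name table calls MYC passed the test. The first (ENSDARG00000007241) was at 235 and 139 CPM in uninjured Wt and 205 and 157 CPM at 2 dpi (-0.05 ± 0.25) and the second (ENSDARG00000045695) at 32.3 and 35.8 CPM in uninjured Wt and 33.8 and 32.8 CPM at 2 dpi (-0.03 ± 0.17), with overlapping groups for both, and the table does not tell which of them is mycb. MYCN was not called either (-0.10 ± 0.25), and its groups overlapped.

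Immediate early and stress-induced transcription factors, which respond within hours of an injury, made up a list of 14 genes. Of these 2 (14.3%) rose and 3 (21.4%) fell, against 19.2 and 17.4% of all genes tested, so neither share stands out. The zinc finger gene egr1 stood at 1694 and 1096 CPM in uninjured Wt and 576 and 437 CPM at 2 dpi (log2 fold change -1.46 ± 0.24, adjusted p = 0.0011). The level of FOSB was 167 and 64 CPM in uninjured Wt and 28.6 and 23.0 CPM at 2 dpi (log2 fold change -2.16 ± 0.38, adjusted p = 0.0017). Uninjured replicate 1 was the highest library for both, and without it the log2 fold change of FOSB was -1.31. Without uninjured replicate 2, 5 members were called lower. ATF3 was not called (149 and 58.3 CPM in uninjured Wt and 163 and 115 CPM at 2 dpi, overlapping groups, log2 fold change 0.42 ± 0.36, adjusted p = 0.4), but was called higher without uninjured replicate 1 (1.25, adjusted p = 0.00526). The members that rose were STAT3 (from 53.5 and 40.8 to 95.3 and 103 CPM, 1.07 ± 0.19) and the Fos-related gene fosl1b (from 0.135 and 0.202 to 9.13 and 7.91 CPM, 5.65 ± 0.64).

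**Figure D2:**
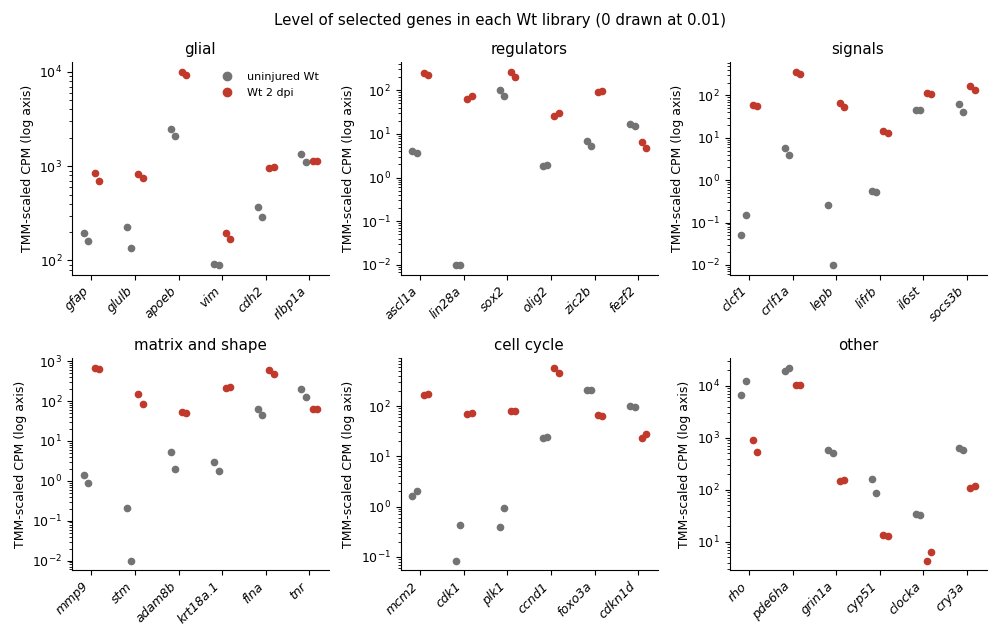
TMM-scaled CPM on a log axis of 36 genes in each Wt library, with uninjured Wt in grey and Wt 2 dpi in red and a level of 0 drawn at 0.01. The points of a group lie close together for most genes, and for rlbp1a the groups overlap.

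Several ligands and receptors that signal through Stat3 rose, some of them through gp130. Clcf1 and Crlf1a form a composite cytokine in mammals, and both were induced. The level of clcf1 was 0.0505 and 0.147 CPM in uninjured Wt and 60.1 and 55.1 CPM at 2 dpi (log2 fold change 9.18 ± 0.37, adjusted p = 7.91e-07), and that of crlf1a was 5.64 and 3.92 CPM in uninjured Wt and 358 and 314 CPM at 2 dpi (log2 fold change 6.13 ± 0.26, adjusted p = 1.04e-06). The leptin gene lepb, a cytokine known to be induced in regenerating zebrafish tissue, was at 0.253 and 0 CPM in uninjured Wt and 66.5 and 52.7 CPM at 2 dpi (log2 fold change 8.81 ± 0.63, adjusted p = 1.35e-05). All 3 ligands were under 6 CPM in each uninjured library and above 50 CPM in each injured one, and the fitted value of lepb rests on the few counts of uninjured replicate 1 (14.65 without it and 7.89 without replicate 2). That of clcf1 was 8.59 and 10.11 without uninjured replicates 1 and 2. Their receptors rose as well, the leptin receptor lepr from 2.49 and 1.56 to 125 and 99.4 CPM (log2 fold change 5.78 ± 0.28, adjusted p = 1.43e-06), the leukaemia inhibitory factor receptor lifrb from 0.556 and 0.515 to 14.5 and 13.2 CPM (log2 fold change 4.68 ± 0.39, adjusted p = 3.21e-05) and the shared gp130 subunit il6st from 45.9 and 44.3 to 114 and 111 CPM (log2 fold change 1.32 ± 0.18, adjusted p = 0.000382). The second leukaemia inhibitory factor receptor lifra was at 19.3 and 14.1 CPM in uninjured Wt and 11.5 and 9.0 CPM at 2 dpi and was not called (log2 fold change -0.71 ± 0.30, adjusted p = 0.096). Downstream, STAT3 and its feedback inhibitor socs3b rose, the latter from 61.8 and 40.8 to 165 and 132 CPM (1.53 ± 0.23). The interleukin genes il11a and il11b, which code for gp130 ligands, were under 3 CPM in all 4 libraries. The first was called (log2 fold change 2.92 ± 0.89, adjusted p = 0.0271), which was lost without uninjured replicate 2 (adjusted p = 0.101) or Wt 2 dpi replicate 1 (0.16), and the second was not (log2 fold change 2.43 ± 1.5, adjusted p = 0.239). In all, 13 (41.9%) of 31 tested Jak/Stat genes of a textbook list rose and 2 (6.45%) fell (median 0.86). Over all genes tested these shares were 19.2 and 17.4%.

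Among 28 cytokine and growth factor genes named by the study, 23 rose and 4 fell (median 2.18). The hepatocyte growth factor receptor met stood at 0 and 0.0920 CPM in uninjured Wt and 37.5 and 34.8 CPM at 2 dpi (log2 fold change 9.60 ± 0.54, adjusted p = 2.96e-06). The Wnt inhibitor dkk1a was at 0.118 and 0.129 CPM in uninjured Wt and 18.8 and 18.7 CPM at 2 dpi (log2 fold change 7.22 ± 0.38, adjusted p = 2.04e-06). The ephrin receptor epha2a was at 3.05 and 2.26 CPM in uninjured Wt and 72.0 and 77.7 CPM at 2 dpi (log2 fold change 4.81 ± 0.25, adjusted p = 2.05e-06). All 3 were under 4 CPM in each uninjured library, and the fitted value of met rests on the few counts of uninjured replicate 2 (8.58 without uninjured replicate 1 and 13.91 without replicate 2). The heparin-binding EGF-like growth factor hbegfa rose from 3.40 and 3.28 to 81.1 and 47.8 CPM (4.27 ± 0.29), while the growth factor gene egf fell from 13.6 and 15.6 to 3.64 and 2.49 CPM (-2.25 ± 0.41). The transforming growth factor tgfb2 rose from 3.55 and 2.34 to 18.8 and 13.6 CPM (2.46 ± 0.32), whereas activin receptor genes fell, acvr1bb from 39.1 and 39.5 to 8.70 and 9.74 CPM (-2.09 ± 0.25) and acvr2aa from 74.9 and 76.7 to 35.0 and 36.1 CPM (-1.09 ± 0.16). The osteoprotegerin gene tnfrsf11b rose from 3.59 and 2.63 to 83.0 and 75.9 CPM (4.67 ± 0.48) and the collagen receptor ddr1 from 20.6 and 13.9 to 205 and 235 CPM (3.67 ± 0.23). The Hedgehog signal transducer smo (1.03 ± 0.21) and the Wnt receptor fzd7b (1.87 ± 0.25) rose as well. Wider lists of EGF and transforming growth factor genes were written after the results were seen. EGF family ligands and receptors rose in 1 (6.67%) and fell in 3 (20%) of 15 tested cases (median -0.91). TGF-beta, BMP and activin ligands rose in 4 (13.8%) and fell in 1 (3.45%) of 29 tested cases (median -0.21). Over all genes tested these shares were 19.2 and 17.4%.

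Notch signalling keeps zebrafish MG quiescent and later maintains progenitors, through Delta and Jagged ligands, Notch receptors and Her target genes. Of 33 tested genes of a textbook list of the pathway, 18 (54.5%) rose and 0 fell (median 1.0), against 19.2 and 17.4% of all genes tested. Of the 11 genes the study names, 9 rose and 1, the Deltex gene dtx4a, fell (log2 fold change -1.06 ± 0.25, adjusted p = 0.00789), a call lost without uninjured replicate 2 (adjusted p = 0.0592) or Wt 2 dpi replicate 1 (0.0599). Among ligands, dlc stood at 0.775 and 1.97 CPM in uninjured Wt and 39.6 and 39.3 CPM at 2 dpi (log2 fold change 4.85 ± 0.45, adjusted p = 4.91e-05, and 5.69 without uninjured replicate 2). The level of dlb was 1.33 and 1.93 CPM in uninjured Wt and 8.19 and 13.1 CPM at 2 dpi (log2 fold change 2.71 ± 0.40, adjusted p = 0.000688). The ligand gene DLD was at 148 and 151 CPM in uninjured Wt and 150.2 and 156 CPM at 2 dpi with overlapping groups (log2 fold change 0.04 ± 0.16, adjusted p = 0.889). Among receptors, notch1b rose from 40 and 24.0 to 91.4 and 105 CPM (1.62 ± 0.24) and NOTCH1 (ENSDARG00000103554) from 16.2 and 14.3 to 49.0 and 67.0 CPM (1.93 ± 0.21), and NOTCH3 was not called (log2 fold change 0.18 ± 0.20, adjusted p = 0.512, overlapping groups). Among the Her targets, her4.2 stood at 79.1 and 67.9 CPM in uninjured Wt and 558 and 430.1 CPM at 2 dpi (log2 fold change 2.75 ± 0.29, adjusted p = 0.000103) and her9 at 23.8 and 17.7 CPM in uninjured Wt and 162 and 141 CPM at 2 dpi (log2 fold change 2.87 ± 0.22, adjusted p = 1.7e-05). The level of her12 was 14.7 and 8.82 CPM in uninjured Wt and 71.5 and 66.9 CPM at 2 dpi (log2 fold change 2.56 ± 0.41, adjusted p = 0.00109). The genes her4.1 to her4.5, her15.1 and her15.2 also rose, but they are near-identical copies among which reads could be divided in counting. Their single values are therefore uncertain, and so is any count of them as separate members of a list. The target hey1 was not called, at 46.6 and 59.3 CPM in uninjured Wt and 40.7 and 30.2 CPM at 2 dpi (log2 fold change -0.58 ± 0.21, adjusted p = 0.0577), except without uninjured replicate 1 (adjusted p = 0.0493).

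Genes of the extracellular matrix and its proteases included some of the strongest changes. Of 18 study names, 15 rose and 2 fell (median 1.68). The gelatinase gene mmp9 stood at 1.40 and 0.865 CPM in uninjured Wt and 688 and 625 CPM at 2 dpi (log2 fold change 9.17 ± 0.38, adjusted p = 7.91e-07). The starmaker gene stm, known for its role in otolith mineralisation, was at 0.202 and 0 CPM in uninjured Wt and 152 and 82.1 CPM at 2 dpi (log2 fold change 10.09 ± 0.65, adjusted p = 7.29e-06), with replicate 1 the higher of the injured pair. The metalloprotease gene adam8b was at 5.14 and 1.95 CPM in uninjured Wt and 53.7 and 51.5 CPM at 2 dpi (log2 fold change 3.89 ± 0.38, adjusted p = 6.92e-05). These 3 were low before injury, and the fitted value of stm rests on the few counts of uninjured replicate 1 (15.62 without it and 9.19 without replicate 2). Without uninjured replicate 1 that of adam8b was 4.75. The proteoglycan dcn rose from 4.48 and 3.68 to 66.9 and 67.5 CPM (4.04 ± 0.29), the protease inhibitor serpinb1 from 12 and 9.68 to 178 and 182 CPM (4.05 ± 0.21) and the basement membrane collagen col18a1a from 161 and 107 to 477 and 546 CPM (1.93 ± 0.23). In the other direction, the perineuronal matrix gene tnr fell from 203 and 127 to 64 and 64.9 CPM (-1.35 ± 0.22) and col15a1b fell from 847 and 558 to 285 and 294 CPM (-1.28 ± 0.22). The gelatinase gene mmp2 did not pass the test (20.4 and 10.7 CPM in uninjured Wt and 31.4 and 32.6 CPM at 2 dpi, log2 fold change 1.04 ± 0.39, adjusted p = 0.0611), and passed it without uninjured replicate 1 (adjusted p = 0.0196).

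Cytoskeletal genes rose together. Of 25 study names for actin and cell shape, 24 rose and 0 fell, with a median of 2.00. The simple epithelial keratin krt18a.1 stood at 3.03 and 1.77 CPM in uninjured Wt and 208 and 223 CPM at 2 dpi (log2 fold change 6.48 ± 0.29, adjusted p = 1.3e-06). Its partner krt8 was at 66.0 and 45.9 CPM in uninjured Wt and 474 and 515 CPM at 2 dpi (log2 fold change 3.14 ± 0.22, adjusted p = 1.03e-05). The actin cross-linker flna was at 62.7 and 45 CPM in uninjured Wt and 587 and 489 CPM at 2 dpi (log2 fold change 3.32 ± 0.28, adjusted p = 2.92e-05). The lowest injured library was well above the highest uninjured one for all 3. Subunits of the actin-nucleating Arp2/3 complex rose less, by 1.02 ± 0.16 for actr2a and 2.45 ± 0.20 for arpc5a. The tropomyosin tpm4a (3.15 ± 0.26), the myosin light chain myl6 (2.96 ± 0.24) and the membrane linker msna (from 134 and 133 to 676 and 677 CPM, 2.34 ± 0.17) rose too, as did the alpha-tubulin gene tuba1b, from 65.9 and 103 to 596 and 653 CPM (2.89 ± 0.27). The smallest value was that of myl9b, which was not called (log2 fold change 0.77 ± 0.28, adjusted p = 0.0552) except without uninjured replicate 1 (adjusted p = 0.00881).

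All 16 complement, interferon and stress genes named by the study rose (median 2.58). The terminal complement gene c7b stood at 35.7 and 17.4 CPM in uninjured Wt and 1876 and 1426 CPM at 2 dpi (log2 fold change 5.96 ± 0.53, adjusted p = 4.26e-05). The heme oxygenase gene hmox1a, which answers oxidative stress, was at 1.45 and 1.23 CPM in uninjured Wt and 26.3 and 36.4 CPM at 2 dpi (log2 fold change 4.54 ± 0.25, adjusted p = 2.96e-06). The galectin lgals2a was at 0.354 and 2.01 CPM in uninjured Wt and 106 and 133 CPM at 2 dpi (log2 fold change 6.68 ± 0.59, adjusted p = 4.07e-05). The kininogen gene kng1 was at 0 and 0.0552 CPM in uninjured Wt and 39.1 and 39.9 CPM at 2 dpi (log2 fold change 10.43 ± 0.48, adjusted p = 1.43e-06), and its fitted value rests on the few counts of uninjured replicate 2 (9.42 without uninjured replicate 1 and 14.04 without replicate 2). Those of lgals2a were 5.89 and 8.41, and that of c7b was 6.57 without uninjured replicate 1. The peroxiredoxin prdx1 (3.45 ± 0.23) and the thioredoxin gene TXN (1.84 ± 0.17) rose as well, and irf9, a mediator of interferon signalling, had the smallest change (1.26 ± 0.19). Since microglia express complement and interferon genes, their markers were examined in the same libraries. Of 24 microglia and leukocyte genes 22 were tested, and 9 (40.9%) rose and 1 (4.55%) fell, against 19.2 and 17.4% of all genes tested. Their summed level was 37.6 and 50.3 CPM in uninjured Wt and 55.7 and 91.7 CPM at 2 dpi, and 2 of them, tnfa and a copy of MPEG1, had too few counts to be tested. The complement component c1qc was at 0.286 and 0.313 CPM in uninjured Wt and 3.17 and 4.35 CPM at 2 dpi and the leukocyte actin bundler lcp1 at 1.90 and 3.17 CPM in uninjured Wt and 7.14 and 11.2 CPM at 2 dpi. The part of such cells in these results was not tested.

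Most proliferation genes were higher at 2 dpi. Of 143 members of the cell cycle and DNA replication families in the study's tables, 118 rose and 12 fell, and their share of all counts went from 0.202 and 0.188% to 0.649 and 0.634%. The families were printed with values from these libraries, in study tables titled as injury-induced genes, so that here too the count is a description. Of 15 textbook proliferation markers, 14 rose (median 5.33). The proliferating cell nuclear antigen gene PCNA stood at 35.1 and 42.9 CPM in uninjured Wt and 537 and 507 CPM at 2 dpi (log2 fold change 3.74 ± 0.19, adjusted p = 1.98e-06). The gene of the Ki67 antigen, mki67, was at 5.31 and 4.75 CPM in uninjured Wt and 179.6 and 150.1 CPM at 2 dpi (log2 fold change 5.03 ± 0.30, adjusted p = 4.53e-06).

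The S-phase genes that rose included those of the replicative helicase. All 6 subunits of the Mcm2-7 complex rose, by between 3.56 ± 0.23 (mcm7) and 6.69 ± 0.21 (mcm4). The subunit mcm2 stood at 1.62 and 2.02 CPM in uninjured Wt and 166 and 176 CPM at 2 dpi (log2 fold change 6.55 ± 0.22, adjusted p = 6.6e-07). The level of mcm5 was 2.12 and 0.902 CPM in uninjured Wt and 145 and 135 CPM at 2 dpi (log2 fold change 6.52 ± 0.37, adjusted p = 3.22e-06). Both were near absent in uninjured MG, and without uninjured replicate 1 the log2 fold change of mcm5 was 7.27. Of the whole mcm family 10 of 11 rose, and mcm3ap, a nuclear export factor that shares only part of the name, was not called (log2 fold change -0.25 ± 0.22, adjusted p = 0.4, overlapping groups). Among the DNA polymerase genes 11 of 12 rose, primpol most (6.66 ± 0.47, and 7.27 without uninjured replicate 1) and polh, a translesion polymerase, least (0.73 ± 0.24, lost without Wt 2 dpi replicate 1, adjusted p = 0.227, or either uninjured library, 0.117 and 0.109). The catalytic subunits pola1 (3.17 ± 0.24), pold1 (3.52 ± 0.19) and pole (5.29 ± 0.25) all rose. All 17 DNA replication genes rose, among them the clamp loader rfc4 (from 3.01 and 1.64 to 24.8 and 24.6 CPM, 3.40 ± 0.33), the single-strand binding protein rpa2 (from 7.68 and 10.7 to 126 and 105 CPM, 3.66 ± 0.22) and the licensing factor cdt1 (3.87 ± 0.35). The smallest increase was that of rfc1 (1.02 ± 0.18).

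Genes of enzymes that supply DNA precursors mostly rose too. Of 28 genes of nucleotide synthesis, 22 rose and 3 fell (median 1.92). Thymidylate synthase, TYMS, stood at 0.606 and 0.221 CPM in uninjured Wt and 77.7 and 94.9 CPM at 2 dpi (log2 fold change 7.68 ± 0.40, adjusted p = 2.06e-06). The ribonucleotide reductase gene rrm2 was at 3.47 and 6.96 CPM in uninjured Wt and 282 and 304 CPM at 2 dpi (log2 fold change 5.82 ± 0.36, adjusted p = 5.41e-06). The large reductase subunit RRM1 rose from 11.5 and 15.2 to 214 and 218 CPM (4.02 ± 0.21) and dihydrofolate reductase, dhfr, from 2.19 and 5.01 to 35.5 and 33.1 CPM (3.26 ± 0.41). Without uninjured replicate 2 the log2 fold changes were 7.17 for TYMS (8.59 without replicate 1), 6.42 for rrm2 and 3.99 for dhfr. The 3 that fell were both IMPDH1 genes, whose enzyme makes guanine nucleotides and is abundant in photoreceptors, and RRM2B, a reductase subunit of non-dividing cells. The IMPDH1 genes went from 304 and 335 to 141 and 138 CPM (ENSDARG00000042336, -1.20 ± 0.18) and from 105 and 109 to 54.5 and 61.0 CPM (ENSDARG00000029524, -0.89 ± 0.16). Their paralog IMPDH2 rose from 12.7 and 15.8 to 58.0 and 51.4 CPM (1.94 ± 0.20). The call of RRM2B (log2 fold change -0.60 ± 0.18, adjusted p = 0.0275) was lost with any 1 of the 4 libraries left out, to an adjusted p of 0.139 and 0.0506 without uninjured replicates 1 and 2 and of 0.107 and 0.133 without the injured ones.

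Most genes of mitosis rose. The mitotic kinase gene cdk1 stood at 0.0842 and 0.423 CPM in uninjured Wt and 70.2 and 74.0 CPM at 2 dpi (log2 fold change 8.17 ± 0.53, adjusted p = 7.29e-06). The polo-like kinase plk1 was at 0.387 and 0.920 CPM in uninjured Wt and 80.3 and 78.9 CPM at 2 dpi (log2 fold change 6.94 ± 0.37, adjusted p = 2.26e-06). All 16 kinetochore genes rose (median 5.29), from zw10 (0.94 ± 0.20) to knstrn (7.36 ± 0.48), as did all 6 condensin genes (median 5.43), from ncaph2 (5.0 ± 0.33) to ncapg2 (5.80 ± 0.30), and all 15 centromere genes (median 4.93), with cenpf going from 0.522 and 1.31 to 69.4 and 87.4 CPM (6.43 ± 0.47). Of the mitotic checkpoint genes 7 of 8 rose, bub1bb most (5.51 ± 0.51). Among the cell division cycle genes cdca7a, a Myc-responsive gene in mammals, rose most, from 0.320 and 0.0368 to 82.8 and 86.7 CPM (8.84 ± 0.48), followed by the helicase subunit cdc45 (7.37 ± 0.71, with no count in uninjured replicate 2), while cdc42, a regulator of actin rather than of division, was not called (85.0 and 95.4 CPM in uninjured Wt and 94.2 and 113 CPM at 2 dpi, overlapping groups). Both replicates at 2 dpi carried these transcripts at like levels, and the fitted values moved with the few uninjured counts. Without uninjured replicates 1 and 2 in turn they were 7.41 and 9.73 for cdk1, 6.57 and 4.95 for bub1bb, 11.08 and 8.06 for cdca7a and 13.20 and 6.45 for cdc45. Without replicate 2 they were 7.70 for plk1 and 7.25 for cenpf.

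Among the cyclin genes, the G1 cyclin ccnd1 stood at 23.7 and 23.8 CPM in uninjured Wt and 584 and 456 CPM at 2 dpi (log2 fold change 4.45 ± 0.20, adjusted p = 1.3e-06). The S-phase cyclin ccna2 was at 0.893 and 2.48 CPM in uninjured Wt and 149 and 137 CPM at 2 dpi (log2 fold change 6.41 ± 0.41, adjusted p = 7.12e-06). The mitotic cyclin ccnb1 was at 1.99 and 1.03 CPM in uninjured Wt and 82.1 and 78.2 CPM at 2 dpi (log2 fold change 5.72 ± 0.32, adjusted p = 3.24e-06). The G1 cyclin was thus clearly measured before injury, and the others were near absent, with 7.34 for ccna2 without uninjured replicate 2. The splicing cyclin ccnl1a was not called (log2 fold change 0.42 ± 0.18, adjusted p = 0.106). Of 28 genes of the cdk family 10 rose and 12 fell (median 0.28). Higher were cdk1, cdk2 (from 1.35 and 1.62 to 38.5 and 37.3 CPM, 4.67 ± 0.28) and cdk6 (2.33 ± 0.43). Lower were genes of the neuronal kinase Cdk5, the activators cdk5r2a from 22 and 30.1 to 4.56 and 6.76 CPM (-2.20 ± 0.29) and cdk5r1b from 49.5 and 51.9 to 16.3 and 14.5 CPM (-1.72 ± 0.19). The increases counted in this family fell to 6 without uninjured replicate 1.

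Genes that restrain growth moved mostly downwards, 8 of 11 lower and 2 higher. The forkhead factor foxo3a, which is active in quiescent cells, stood at 207 and 210.3 CPM in uninjured Wt and 65.6 and 64.6 CPM at 2 dpi (log2 fold change -1.68 ± 0.17, adjusted p = 8.26e-05). The Cdk inhibitor cdkn1d was at 101 and 97.9 CPM in uninjured Wt and 23.4 and 28.4 CPM at 2 dpi (log2 fold change -1.94 ± 0.27, adjusted p = 0.000496). The Max partner mxi1, an antagonist of Myc, fell from 99.3 and 99.1 to 39.9 and 46.4 CPM (-1.20 ± 0.17). The Cdk inhibitor cdkn1ba fell from 33.2 and 34.3 to 15.3 and 19.8 CPM (log2 fold change -0.95 ± 0.25, adjusted p = 0.0154), a call lost without uninjured replicate 2 (adjusted p = 0.0517) or Wt 2 dpi replicate 1 (0.107). Against this direction, the p53 target and Cdk inhibitor cdkn1a rose from 15.6 and 8.28 to 69.8 and 55.3 CPM (2.39 ± 0.30). Without Wt 2 dpi replicate 1, 4 of the 8 decreases were left, and without uninjured replicate 2, 5.

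**Figure D3:**
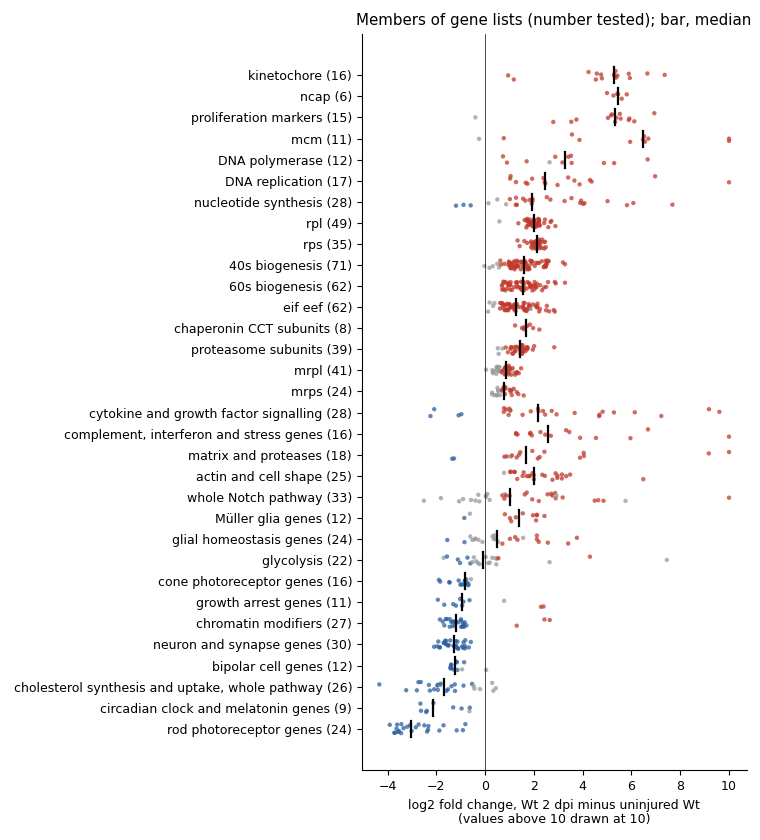
Log2 fold change (Wt 2 dpi minus uninjured Wt) of the tested members of 32 gene lists, 1 point a gene and a black bar at the median, with called genes in red (higher) or blue (lower) and the rest in grey. Values above 10, all of genes at or near 0 in uninjured Wt, are drawn at 10. Mitotic and replication lists lie at the right, ribosomal lists form narrow bands near 2, and rod, clock and sterol lists lie at the left.

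Most genes of the machinery of protein synthesis rose. The families of ribosomes, their biogenesis and translation below were taken from study tables titled as injury-induced genes. Their counts are therefore a description and no independent evidence of a direction. Of 84 cytosolic ribosomal protein genes, 83 rose, and their share of all counts went from 1.37 and 1.55% in uninjured Wt to 6.50 and 6.01% at 2 dpi. The subunit gene rplp0 of the ribosomal stalk stood at 436 and 544 CPM in uninjured Wt and 2963 and 2939 CPM at 2 dpi (log2 fold change 2.59 ± 0.22, adjusted p = 3.04e-05). The level of rps2 was 417 and 496 CPM in uninjured Wt and 2472 and 2345 CPM at 2 dpi (log2 fold change 2.40 ± 0.19, adjusted p = 2.32e-05). Values within the families ran from 1.36 ± 0.18 (rplp2) to 2.88 ± 0.20 (rpl22l1) for large subunit genes, leaving aside an identifier that the gene name table calls COA1 and that was not called (log2 fold change 0.58 ± 0.26, adjusted p = 0.113) except without Wt 2 dpi replicate 2 (adjusted p = 0.0495), and from 1.33 ± 0.17 (rps27.2) to 2.48 ± 0.21 (rps20) for small subunit genes.

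Ribosome biogenesis genes rose as well, 66 of 71 for the 40S and 62 of 62 for the 60S subunit (medians 1.57 and 1.55). The nucleolar chaperone npm1a stood at 18.5 and 24.8 CPM in uninjured Wt and 223 and 195 CPM at 2 dpi (log2 fold change 3.27 ± 0.21, adjusted p = 6.52e-06), the largest change of both families, and nucleostemin, gnl3, at 13.4 and 19.2 CPM in uninjured Wt and 130.0 and 112 CPM at 2 dpi (log2 fold change 2.89 ± 0.22, adjusted p = 1.66e-05). The smallest values were those of esf1 for the 40S subunit (-0.03 ± 0.28, 18.3 and 30.0 CPM in uninjured Wt and 24.6 and 22.6 CPM at 2 dpi, overlapping groups) and of lsg1 for the 60S subunit (0.68 ± 0.18, lost without uninjured replicate 2, adjusted p = 0.0654, or either 2 dpi library, 0.0525 and 0.0875). Of the nucleolar genes 25 of 27 rose, and the largest change there was that of nusap1 (5.47 ± 0.60, and 4.76 and 6.86 without uninjured replicates 1 and 2), which also binds the mitotic spindle. Of the DEAD-box helicases 20 of 21 rose, with ddx52 (2.48 ± 0.23) at the top and ddx3xb not called (236 and 228 CPM in uninjured Wt and 202 and 232 CPM at 2 dpi, overlapping groups). Translation factors rose in 57 of 62 cases. The elongation factor eef1a1l1 stood at 964 and 1156 CPM in uninjured Wt and 6548 and 6489 CPM at 2 dpi (log2 fold change 2.62 ± 0.20, adjusted p = 1.6e-05), the initiation helicase eif4a1a at 152 and 154 CPM in uninjured Wt and 857 and 869.8 CPM at 2 dpi (log2 fold change 2.49 ± 0.23, adjusted p = 4.48e-05), and eif5a2 changed most (2.85 ± 0.21). Of 27 aminoacyl-tRNA synthetase genes 26 rose, qars1 most (from 14 and 19.4 to 87.7 and 73.2 CPM, 2.27 ± 0.22), while cars2 was not called (0.31 ± 0.31, overlapping groups).

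Mitochondrial ribosomes took a smaller part. Of 41 mrpl genes 25 rose (median 0.83) and of 24 mrps genes 15 (median 0.76), with mrpl12 (from 16.6 and 19.6 to 54.6 and 45.8 CPM, 1.47 ± 0.20) and mrps23 (from 7.71 and 8.30 to 22.6 and 25.3 CPM, 1.58 ± 0.21) at the top. These counts were sensitive to single libraries, 15 mrpl and 6 mrps genes without uninjured replicate 1, and 7 mrps genes without Wt 2 dpi replicate 1. Genes for the folding and turnover of proteins moved with those for their synthesis. All 8 genes of the CCT chaperonin rose, TCP1 most (from 127 and 152 to 674 and 626 CPM, 2.22 ± 0.20), and 36 of 39 proteasome genes rose (median 1.45), from PSMC6 (log2 fold change 0.85 ± 0.21, adjusted p = 0.0115, lost without uninjured replicate 1, adjusted p = 0.0803, or Wt 2 dpi replicate 1, 0.0967) to PSMD10 (2.83 ± 0.23). PSMB5, a catalytic subunit, stood at 92.1 and 105 CPM in uninjured Wt and 316 and 329 CPM at 2 dpi (log2 fold change 1.71 ± 0.20, adjusted p = 0.000177). Neither list was drawn from the study's tables, but both were chosen with earlier results of these data known.

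Chromatin modifiers named by the study moved mostly the other way, with 24 of 27 lower and 3 higher (median -1.22). The histone H3K4 methyltransferase genes kmt2a and kmt2d fell, kmt2a from 82.6 and 56.8 to 17.0 and 24.7 CPM (log2 fold change -1.74 ± 0.26, adjusted p = 0.000627) and kmt2d from 41.7 and 38 to 13.6 and 16.7 CPM (log2 fold change -1.39 ± 0.20, adjusted p = 0.000556). The acetyltransferase gene ep300b fell from 73.1 and 59.1 to 22.4 and 21.7 CPM (-1.59 ± 0.19), and the corepressor ncor1 from 213 and 204 to 58.4 and 78.2 CPM (-1.61 ± 0.19). In the other direction, the de novo DNA methyltransferase dnmt3ba stood at 5.89 and 4.62 CPM in uninjured Wt and 37.3 and 28.6 CPM at 2 dpi (log2 fold change 2.65 ± 0.24, adjusted p = 4.66e-05), and hdac3 rose by 1.29 ± 0.18. The 2 Jarid2 genes, which encode partners of Polycomb repressive complex, were opposite: jarid2a fell from 44.0 and 35.4 to 9.99 and 11.9 CPM (-1.86 ± 0.24) and jarid2b rose from 6.13 and 4.36 to 30.5 and 26.1 CPM (2.43 ± 0.28).

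Genes of cholesterol synthesis were lower along most of the pathway. The pathway runs from acetyl-CoA through mevalonate and squalene to cholesterol and is controlled by the transcription factor Srebf2. Of 26 genes of synthesis and uptake, 19 fell and 0 rose (median -1.71). Squalene epoxidase, SQLE (ENSDARG00000079946), stood at 68.9 and 35.4 CPM in uninjured Wt and 2.18 and 2.96 CPM at 2 dpi (log2 fold change -4.34 ± 0.38, adjusted p = 3.97e-05). Lanosterol demethylase, cyp51, was at 163 and 88.0 CPM in uninjured Wt and 13.6 and 13 CPM at 2 dpi (log2 fold change -3.24 ± 0.29, adjusted p = 4.43e-05). The regulator insig1 was at 119 and 84.1 CPM in uninjured Wt and 15.9 and 16.7 CPM at 2 dpi (log2 fold change -2.64 ± 0.21, adjusted p = 2.38e-05). For all 3 genes uninjured replicate 1 was well above replicate 2, and both were far above the injured libraries. An early enzyme of the pathway, hmgcs1, fell from 150.4 and 101 to 24.2 and 28 CPM (-2.27 ± 0.23), and srebf2 itself fell from 149.9 and 112 to 30.1 and 37.1 CPM (-1.96 ± 0.24). The decreases were not even along the pathway. Among the genes between hmgcs1 and fdft1, the enzyme that commits to sterols, MVK (6.70 and 4.2 CPM in uninjured Wt and 6.46 and 6.83 CPM at 2 dpi, log2 fold change 0.28 ± 0.34, adjusted p = 0.563, overlapping groups), PMVK (0.44 ± 0.51, overlapping groups) and IDI1 (-0.47 ± 0.17) were not called. FDPS was called at -0.54 ± 0.17, which was lost without uninjured replicate 1 (adjusted p = 0.18) or either 2 dpi library (0.201 and 0.091).

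**Figure D4:**
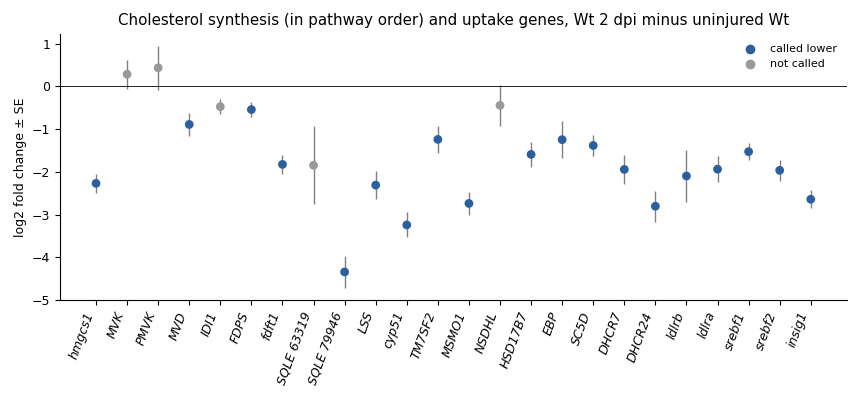
Log2 fold change ± SE of 24 of the 26 genes of cholesterol synthesis, in pathway order, and of uptake and control, with genes called lower in blue and genes not called in grey. Where 2 genes share a symbol the last digits of the identifier follow it. Values fall from near 0 at MVK and PMVK to -4.34 at SQLE.

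Genes of the circadian clock and of melatonin synthesis were lower in 8 of 9 cases (median -2.12). The core activator clocka stood at 34.2 and 32.6 CPM in uninjured Wt and 4.37 and 6.41 CPM at 2 dpi (log2 fold change -2.63 ± 0.34, adjusted p = 0.000307). The cryptochrome gene cry3a was at 636 and 572 CPM in uninjured Wt and 109 and 121 CPM at 2 dpi (log2 fold change -2.39 ± 0.30, adjusted p = 0.000252). The related cry3b was at 152 and 125 CPM in uninjured Wt and 21.6 and 22.3 CPM at 2 dpi (log2 fold change -2.66 ± 0.26, adjusted p = 6.75e-05). Both replicates were close in each group. The clock partner npas2 (-2.42 ± 0.35) and the receptor genes rorca (-2.12 ± 0.24) and rorab (-1.31 ± 0.18) fell as well. The study does not give the hour at which retinas of each group were collected. A part of time of day in these decreases was not tested. The enzyme aanat2, which makes melatonin in photoreceptors, fell from 226 and 367 to 124 and 179 CPM (log2 fold change -0.97 ± 0.26, adjusted p = 0.0146), a call lost without uninjured replicate 2 (adjusted p = 0.114) or Wt 2 dpi replicate 1 (0.121), in libraries whose rod and cone genes fell too.

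Of 22 tested glycolysis genes 2 (9.09%) were higher and 5 (22.7%) lower, against 19.2 and 17.4% of all genes tested (median -0.10). One of the increases was that of hexokinase 2, HK2, which catalyses the first step in growing cells, at 0.589 and 0.975 CPM in uninjured Wt and 16.6 and 14.1 CPM at 2 dpi (log2 fold change 4.3 ± 0.36, adjusted p = 3.06e-05), whereas HK1 was not called (289 and 266 CPM in uninjured Wt and 319 and 283 CPM at 2 dpi, overlapping groups, log2 fold change 0.12 ± 0.16, adjusted p = 0.618). The neuronal enolase eno2 fell from 382 and 550.0 to 145 and 169 CPM (-1.57 ± 0.25). Of the 5 decreases, 3 were left without Wt 2 dpi replicate 1 or replicate 2.

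Photoreceptor genes were lower at 2 dpi, with a larger median decrease in rod than in cone genes. All 24 rod genes fell (median -3.05), and 15 of 16 cone genes fell (median -0.84). Rhodopsin, rho, stood at 6606 and 12263 CPM in uninjured Wt and 919 and 525 CPM at 2 dpi (log2 fold change -3.71 ± 0.37, adjusted p = 6.75e-05). The rod transducin gene gnat1 was at 1695 and 2796 CPM in uninjured Wt and 231 and 136 CPM at 2 dpi (log2 fold change -3.61 ± 0.32, adjusted p = 4.03e-05). Uninjured replicate 2 and Wt 2 dpi replicate 1 were the higher of their pairs for both genes, and the groups lay far apart. The disc protein rom1a fell most (-3.91 ± 0.25) and the arrestin sagb least (log2 fold change -0.81 ± 0.25, adjusted p = 0.0265, lost without uninjured replicate 2, adjusted p = 0.168, or Wt 2 dpi replicate 2, 0.185). Among the rod phosphodiesterase genes pde6a fell from 297 and 374 to 62.1 and 39.0 CPM (-2.73 ± 0.25), and the arrestin saga fell from 54.9 and 90.6 to 22.7 and 16.8 CPM (-1.88 ± 0.26).

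The cone phosphodiesterase inhibitor pde6ha stood at 19529.6 and 22393 CPM in uninjured Wt and 10467 and 10264 CPM at 2 dpi (log2 fold change -1.02 ± 0.18, adjusted p = 0.00195). The blue opsin opn1sw2 fell most, from 649 and 1521 to 329 and 254 CPM (log2 fold change -1.90 ± 0.34, adjusted p = 0.00195), with a log2 fold change of -1.13 without uninjured replicate 2. The green opsin opn1mw4 fell from 397 and 381 to 216 and 182 CPM (-0.96 ± 0.19). The red opsin opn1lw2, which is not in the list, fell from 7341 and 12146 to 2798 and 3592 CPM (log2 fold change -1.61 ± 0.25, adjusted p = 0.000972) and kept its call with each library left out in turn. A second red opsin outside the list, opn1lw1, was not called. It took 1.05 and 1.12% of all counts in uninjured Wt and 0.858% in Wt 2 dpi replicate 2. The calls of many cone genes, among them the 4 given below, rested on few libraries. The opsin copies of this group can share reads in counting, so their single values are uncertain. The opsins opn1mw2 (from 2731 and 5148 to 1817 and 1896 CPM, log2 fold change -1.09 ± 0.27, adjusted p = 0.0106) and opn1sw1 (from 932 and 1315 to 444 and 374 CPM, log2 fold change -1.46 ± 0.37, adjusted p = 0.012) and the transducin genes gnat2 (from 5790.0 and 8116 to 3789 and 4016 CPM, log2 fold change -0.83 ± 0.21, adjusted p = 0.0115) and gnb3b (from 5458 and 7483 to 3451 and 3759.9 CPM, log2 fold change -0.84 ± 0.22, adjusted p = 0.0128) were called, but without Wt 2 dpi replicate 2 their adjusted p-values were 0.0528, 0.0612, 0.0685 and 0.0649. Without Wt 2 dpi replicate 1 those of opn1mw2, gnat2 and gnb3b were 0.0678, 0.101 and 0.11, and gnb3b was also lost without uninjured replicate 2 (0.0559). The count of cone genes called lower was 9 without uninjured replicate 2, 7 without Wt 2 dpi replicate 1 and 6 without Wt 2 dpi replicate 2. The phosphodiesterase gene pde6c was not called (3496 and 5326 CPM in uninjured Wt and 3009.7 and 2881 CPM at 2 dpi, log2 fold change -0.58 ± 0.22, adjusted p = 0.0601) except without uninjured replicate 1 (adjusted p = 0.00447).

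Most of the neuronal genes examined were lower. All 30 neuron and synapse genes named by the study fell (median -1.28), as did 12 of 18 tested amacrine, horizontal and ganglion cell genes and 10 of 12 tested bipolar cell genes of textbook lists, none of which rose. The NMDA receptor subunit grin1a stood at 584 and 505 CPM in uninjured Wt and 147 and 153 CPM at 2 dpi (log2 fold change -1.86 ± 0.17, adjusted p = 4.48e-05). The GABA-synthesising enzyme gad1b of amacrine cells was at 1107 and 966 CPM in uninjured Wt and 456 and 409 CPM at 2 dpi (log2 fold change -1.26 ± 0.18, adjusted p = 0.000565). The AMPA receptor subunits gria1a (-2.10 ± 0.22) and gria2b (-1.56 ± 0.21) and the synaptic vesicle gene syn1 (from 27.9 and 29.8 to 8.73 and 11.7 CPM, -1.5 ± 0.23) fell too. The neuropeptide vip fell from 127 and 140.4 to 88.8 and 61.3 CPM (log2 fold change -0.83 ± 0.22, adjusted p = 0.016), lost without uninjured replicate 2 (adjusted p = 0.0673) or Wt 2 dpi replicate 2 (0.131). The bipolar cell factor VSX1 fell from 73.8 and 78.0 to 30.0 and 27.5 CPM (-1.40 ± 0.17) and the ganglion cell factor POU4F2 from 30.2 and 59.0 to 6.97 and 14.2 CPM (-2.07 ± 0.44, with -2.68 without Wt 2 dpi replicate 2). The summed level of the amacrine, horizontal and ganglion cell list was 3439.9 and 3389.7 CPM in uninjured Wt and 1457 and 1401 CPM at 2 dpi. Whether such RNA came from MG or from neurons sorted with them was not tested.

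Markers of cells outside the neural retina were not even between groups. Of 9 tested genes of the retinal pigment epithelium (RPE) 6 rose, with a summed level of 69.2 and 31.7 CPM in uninjured Wt and 317 and 522 CPM at 2 dpi. The visual cycle isomerase RPE65 (ENSDARG00000007480) stood at 25.6 and 6.55 CPM in uninjured Wt and 113 and 176 CPM at 2 dpi (log2 fold change 3.16 ± 0.53, adjusted p = 0.00127). TYRP1 (ENSDARG00000056151), an enzyme of melanin synthesis, was at 10.3 and 7.42 CPM in uninjured Wt and 101 and 161 CPM at 2 dpi (log2 fold change 3.89 ± 0.27, adjusted p = 1.22e-05). Wt 2 dpi replicate 2 was the highest library for both. Without uninjured replicates 1 and 2 in turn the log2 fold change of RPE65 was 4.46 and 2.52. The tyrosinase gene TYR had no count in 3 of the 4 libraries. Of 2 lens genes named by the study, crybb2 rose from 0.960 and 1.23 to 69.7 and 53.6 CPM (5.81 ± 0.42) and lim2.2 from 0.320 and 0.11 to 37.5 and 22.9 CPM (7.10 ± 0.49, and 8.07 without uninjured replicate 1), while among 8 tested structural genes of lens CRYBA4 fell (-1.26 ± 0.29), crybb2 rose and the other 6 were not called. The leukocyte gene cd74a fell from 13.2 and 21.8 to 3.32 and 9.11 CPM (log2 fold change -1.5 ± 0.51, adjusted p = 0.0437), lost without uninjured replicate 2 (adjusted p = 0.206) or Wt 2 dpi replicate 1 (0.194), and sox10 of the oligodendrocyte lineage fell from 38.8 and 25.3 to 16.8 and 16.6 CPM (log2 fold change -0.94 ± 0.26, adjusted p = 0.0175), lost without uninjured replicate 1 (0.158) or either 2 dpi library (0.0702 and 0.0691). The other gene of each of these 2-gene study lists rose, lcp1 for leukocytes (1.86) and olig2 for the oligodendrocyte lineage (3.87). The part of RPE, lens or blood-derived cells in the injured libraries was not tested.

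**Figure D5:**
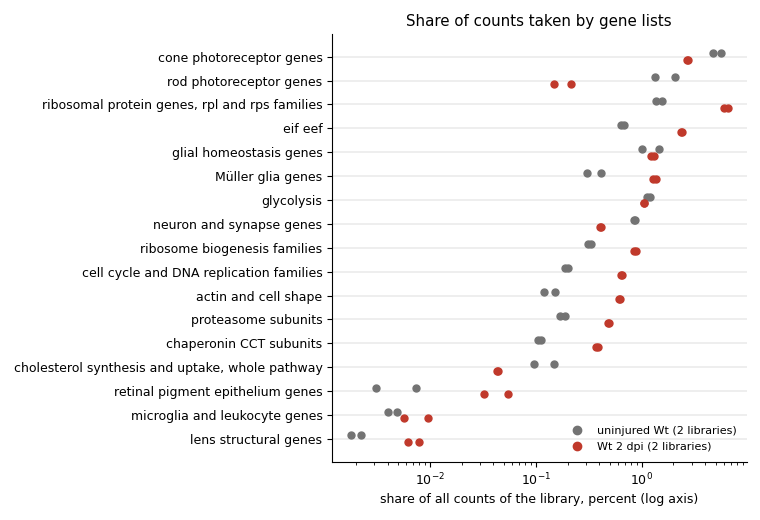
Share of all counts of a library, in percent on a log axis, taken by 17 gene lists, with uninjured Wt libraries in grey and Wt 2 dpi libraries in red. Ribosomal protein genes go from 1.37 and 1.55% to 6.50 and 6.01%, rod genes fall to 0.217 and 0.150%, and glial homeostasis and glycolysis lists stay near 1%.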

How the data were processed

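GFP+ MG were sorted from dissociated retinas and their polyA RNA was sequenced. The deposited table holds unnormalized read counts of each gene in 6 columns, and the submitters' processing notes list cutadapt 2.3, FastQC 0.11.8, STAR 2.7.8a, RSEM 1.3.3, DESeq2 and the builds GRCz11 and GRCh38. STAR with RSEM gives estimated counts, so reads shared by near-identical genes may be divided among them. The deposited values are whole numbers. The file pairs no names with identifiers. Names came from the study's tables where printed with an identifier (480 genes), and otherwise by matching the study's tabulated values to values computed here (1210 names by 3 values, 255 by 1 value and the name's stem), used for names alone. The first match could be checked on 429 printed rows with an identifier, in which a gene can recur, and it was right for each. A further gene name table covered 21982 identifiers, and 4367 genes stayed as identifiers. Of the matched names, 1518 had the same stem as in that further table and 39 had a different one.

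In R 4.3.3, edgeR 4.0.16 was used with TMM scaling, filterByExpr (minimum count 10) and a quasi-likelihood fit of all 6 libraries with 3 residual degrees of freedom, with Benjamini-Hochberg adjustment. SE was taken as the size of the log2 fold change over the root of its F statistic. The common biological coefficient of variation was 0.396, and the median SE of called genes was 0.245. With 2 libraries a group the number of libraries limits the precision, and for genes with few counts the depth may limit it too. Of genes under 1 CPM on average 5.04% were called, and of those above 100 CPM 61.5%. The fit was tested on simulated counts, with 200 planted changes among 19098 genes tested. Of the planted changes 110 were called. These were 27 changes of an absolute log2 fold change of 1 and 83 of 2, and 4 unchanged genes were called. The planted changes were a far smaller part of the genes than the 36.6% called in the real comparison. The adjusted p threshold therefore acts differently there, and the share of real changes that was found was not tested. A gene that was not called may still have changed.

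Gene lists came from names in the study's tables, from families printed there, and from textbook knowledge. Members and lists were chosen with earlier results of these data known. Genes named are marked members of the lists, the 10 largest increases and decreases with a name, up to 2 identifiers each way, and the extremes of each list, and further members were chosen after their values were seen. Alternatives were DESeq2 1.42.0, other scalings, no filter, other thresholds, the 4 Wt libraries alone, a replicate block and each library left out. No sequences were used here, and single values of a few list members are not reported here.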

Additional observations from a re-analysis of the deposited data

How the results depend on the processing

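No called gene changed sign under any alternative. As reported, 3904 genes were higher and 3535 lower. A test against an absolute log2 fold change of 0.5 (glmTreat) called 5064 genes, against 7439 as reported, and 2210 of the 5064 were lower. Under that test the members called higher were 6 for cdk, 13 for mrpl and 6 for mrps, and those called lower were 7 for cone, 5 for growth arrest, 3 for progenitor, 3 for glycolysis and 2 for regeneration genes. DESeq2 gave 8278 calls, no filter 8316 and library-size scaling 6968, against 7439. On the simulated counts DESeq2 called 154 of the 200 planted changes and 82 unchanged genes, against 110 and 4 for edgeR. Leaving out 1 library at a time gave 2971 to 3295 genes higher and 2350 to 2886 lower.

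Over the same 4 fits the members called higher numbered 6 to 9 for cdk (10 with all libraries), 15 to 27 for mrpl (25) and 6 to 14 for mrps (15). Those called lower numbered 6 to 16 for cone genes (15), 4 to 6 for growth arrest (8), 3 to 6 for progenitor regulators (6), 3 to 6 for glycolysis (5), 2 to 5 for injury transcription factors (3) and 1 to 3 for regeneration factors (4).

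Of the genes named, the direction changed only for some that were not called. Over the fits with 1 library left out the log2 fold change ranged from -0.24 to 0.050 for rlbp1a, -0.079 to 1.25 for ATF3, -0.35 to 0.38 for ENSDARG00000007241, -0.11 to 0.067 for ENSDARG00000045695, -0.22 to 0.055 for MYCN, -0.026 to 0.46 for NOTCH3, -0.42 to 0.97 for PMVK, -0.11 to 0.64 for cars2, -0.35 to 0.39 for esf1 (0.026 with the replicate block), -0.22 to 0.040 for DNAH6 and -0.20 to 0.15 for GAS8.

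Replicate numbers did not pair the samples: deviations of same-numbered libraries correlated at -0.01 between uninjured Wt and Wt 2 dpi. Taking the replicate number as a block gave 3847 genes higher and 3579 lower. With rod and cone genes taken out of the denominator, the mean share of cell cycle families was 0.209% in uninjured Wt and 0.660% at 2 dpi (0.195 and 0.641% otherwise), and that of ribosome biogenesis families 0.346 and 0.899% (0.322 and 0.873%). Of genes under 1 CPM on average 5.04% were called, against 61.5% of those above 100 CPM, so a change of a low gene may not be detectable at this depth and number of libraries.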

Other observations

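Genes of motile cilia were looked at after 3 of them had been seen among the 10 largest increases, so that the counts below are a description. Of 84 such genes, 74 were tested, 24 rose and 1 fell, against 19.2 and 17.4% of all genes tested. Leaving those 3 out, 21 of 71 rose. Without Wt 2 dpi replicate 2 the first count was 15. FOXJ1, the forkhead factor known to switch on motile ciliogenesis, stood at 1.06 and 0.129 CPM in uninjured Wt and 69.1 and 66.2 CPM at 2 dpi (log2 fold change 6.80 ± 0.60, adjusted p = 4.19e-05), and its partner rfx2 at 1.84 and 0.663 CPM in uninjured Wt and 11.2 and 14 CPM at 2 dpi (log2 fold change 3.33 ± 0.47, adjusted p = 0.000508). The axonemal dynein gene DNAI1 (ENSDARG00000038788) went from 0.118 and 0.570 to 9.69 and 8.99 CPM (4.77 ± 0.68), odad3, of the dynein docking complex, from 0 and 0.350 to 7.50 and 8.78 CPM (5.55 ± 0.98, with no count in uninjured replicate 1) and cfap70 from 0.0337 and 0.331 to 8.61 and 10 CPM (5.68 ± 0.74). Without uninjured replicates 1 and 2 in turn, the fitted values were 9.01 and 6.02 for FOXJ1, 4.25 and 2.80 for rfx2, 4.03 and 6.30 for DNAI1, 4.53 and 11.76 for odad3 and 4.80 and 8.04 for cfap70. Many members were nonetheless not called, among them DNAH6 (8.35 and 8.32 CPM in uninjured Wt and 8.57 and 7.14 CPM at 2 dpi) and GAS8 (18.4 and 20.3 CPM in uninjured Wt and 21.4 and 16.9 CPM at 2 dpi), with overlapping groups.

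Other lists were also written after the results were seen. Their counts stand against 19.2% of all genes tested called higher and 17.4% called lower. Heat shock genes were divided, with 11 of 25 (44.0%) higher and 6 (24.0%) lower. The constitutive chaperones HSPA8 (ENSDARG00000068992) and HSPD1 rose, from 1084 and 1078 to 4062 and 3739 CPM (1.85 ± 0.22) and from 54.5 and 51.2 to 323 and 302 CPM (2.56 ± 0.19). The inducible genes hsp70.3, which has near-identical copies that can share reads (from 4317 and 2339 to 1549.6 and 1015 CPM, -1.38 ± 0.30) and BAG3 (from 305 and 92.3 to 80.4 and 42.2 CPM, log2 fold change -1.70 ± 0.49, adjusted p = 0.0212) fell, with uninjured replicate 1 the highest library, and without that library the log2 fold change of hsp70.3 was -0.87, the adjusted p of BAG3 was 0.247 and 2 heat shock genes were lower. Without Wt 2 dpi replicate 2 the adjusted p of BAG3 was 0.105, and again 2 were lower. Annexins and galectins, families of calcium- and sugar-binding proteins, rose in 14 of 19 cases, with ANXA2 at 0 and 0.828 CPM in uninjured Wt and 31.6 and 27.4 CPM at 2 dpi (log2 fold change 6.19 ± 0.81, adjusted p = 0.000331), a fitted value that rests on the counts of uninjured replicate 2 (5.15 without uninjured replicate 1 and 13.62 without replicate 2). Integrin subunits rose in 10 of 26 cases and fell in 0, with ITGB6 going from 3.33 and 2.56 to 44.6 and 36.9 CPM (3.79 ± 0.25). Of 25 genes of the unfolded protein response 14 rose, among them the chaperones PDIA3 (from 80.3 and 95.9 to 406 and 393 CPM, 2.18 ± 0.24) and MANF (from 9.38 and 10.2 to 51.0 and 50.8 CPM, 2.38 ± 0.27), while DDIT3, its stress-induced factor, fell from 101 and 91.4 to 40.9 and 30.6 CPM (-1.43 ± 0.28). Of 18 tested Wnt ligand genes 2 (11.1%) rose and 0 fell, both shares under those of all genes tested. Of the 13 mitochondrially encoded genes 0 rose and 1, MT-CO2, fell (from 11068 and 16556 to 7167 and 7660.1 CPM, log2 fold change -0.90 ± 0.23, adjusted p = 0.0117), a call lost without Wt 2 dpi replicate 1 (adjusted p = 0.0978) or replicate 2 (0.0655), with uninjured replicate 2 the highest library.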
